A study of Homo sapiens with 10 samples.

Results

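The regions described here were 5445 intronic poly(A) peaks with 2 sequence features of a polyadenylation site, out of 178837 peaks in the deposited list and 91453 intronic peaks to which the features could be applied. A peak was a member when its summit lay in an intron of a protein-coding gene of 1 strand in GENCODE 44, over 2 kb from the start of the canonical transcript. The summit also had to lie outside all exons and outside windows of 200 bp upstream to 600 bp downstream of annotated transcription end sites (TES). From the 3′ edge of the peak on the gene's strand, fewer than 7 of the next 10 genomic bases were A, and AATAAA or ATTAAA (the core hexamers) started 35 to 15 bp upstream. Neither the height of the peak nor any condition of the cells entered this choice.

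The peaks came from poly(A) 3′-seq of IMR-32, a human neuroblastoma cell line. The 10 libraries were from cells carrying a pLKO.1 lentiviral shRNA after puromycin selection: 4 with an shRNA against CDK12 (the constructs labelled sh22 and sh98), 4 with one against CDK13 (sh701 and sh704) and 2 with one against GFP as control, with 2 libraries for each construct. CDK12 and CDK13 are kinases of the C-terminal domain of RNA polymerase II, and the study asked whether their loss leads to premature cleavage and polyadenylation (PCPA). The authors downsampled the libraries to the size of the smallest one and called the peaks once on the reads of all libraries together. No value per library, group or replicate could therefore be given, and the shRNA groups could not be compared. The depth of the libraries before or after this step is not known.

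The intervals below cover counting error over peaks only. Peaks of the same gene share their source and are not replicates. The list holds no strand, and each peak took that of its gene.

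The 3′ end of most mRNAs is made when the cleavage and polyadenylation complex recognises the hexamer AAUAAA or AUUAAA through CPSF, a U-rich or GU-rich element past the cleavage site through CstF, and UGUA motifs upstream through CFIm. Introns hold many such hexamers, and U1 snRNP, bound to 5′ splice sites and similar sequences, keeps the polymerase from ending at them. An oligo(dT) primer can also anneal to A stretches that are encoded in the genome and give a peak where no poly(A) tail was added, so a peak that is not followed by A in the genome is less open to that origin.

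The strongest members are shown first, so that the core hexamers can be read against the 3′ edge. Each sequence runs from 40 bases before to 60 bases after the edge on the gene's strand of GRCh38, 5′ to 3′. Capitals mark the core hexamers 35 to 15 bases before the edge and any run TTTTT, repeat of the form TGTGT or repeat of the form GTGTG from the 11th base after it. These are 10 of the 12 members with the highest −log10 q-value, counting 1 per gene. The members in FBXL18 and STMN2 are described with their values only.
ENSG00000283515, intron 9, chr19:58303604-58303703, plus strand: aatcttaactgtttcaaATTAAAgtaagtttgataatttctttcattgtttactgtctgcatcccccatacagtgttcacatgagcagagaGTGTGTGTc
PRMT2, intron 8, chr21:46660108-46660207, plus strand: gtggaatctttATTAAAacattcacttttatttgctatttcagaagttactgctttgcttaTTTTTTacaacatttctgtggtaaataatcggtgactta
FMO4, intron 9, chr1:171341120-171341219, plus strand: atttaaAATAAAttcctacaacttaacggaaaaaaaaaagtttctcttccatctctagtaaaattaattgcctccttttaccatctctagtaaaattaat
SUFU, intron 2, chr10:102513081-102513180, plus strand: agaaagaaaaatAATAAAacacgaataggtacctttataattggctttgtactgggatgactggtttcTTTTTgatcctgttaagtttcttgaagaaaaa
TMCO3, intron 8, chr13:113526238-113526337, plus strand: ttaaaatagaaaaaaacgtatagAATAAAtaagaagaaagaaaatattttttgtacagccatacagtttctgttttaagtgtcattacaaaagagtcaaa
FARP2, intron 2, chr2:241397332-241397431, plus strand: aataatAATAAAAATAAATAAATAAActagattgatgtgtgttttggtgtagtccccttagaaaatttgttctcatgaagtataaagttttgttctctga
ABTB3, intron 1, chr12:107357616-107357715, plus strand: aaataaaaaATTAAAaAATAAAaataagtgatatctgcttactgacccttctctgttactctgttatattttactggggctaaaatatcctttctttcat
SLC9B2, intron 6, chr4:103047293-103047392, minus strand: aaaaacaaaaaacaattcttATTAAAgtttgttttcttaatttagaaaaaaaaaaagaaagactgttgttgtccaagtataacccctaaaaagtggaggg
KLHL23, chr2:169711247-169711346, plus strand: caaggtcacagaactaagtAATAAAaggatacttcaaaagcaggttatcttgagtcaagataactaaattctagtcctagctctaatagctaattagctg
NCAPH, intron 17, chr2:96371070-96371169, plus strand: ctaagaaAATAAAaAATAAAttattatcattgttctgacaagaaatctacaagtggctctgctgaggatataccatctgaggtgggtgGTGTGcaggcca

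The next sequences are all members in 7 genes named by the study, among them the genes it knocked down; BARD1 was the only one of the 7 with no member.
MYCN, intron 2, chr2:15944508-15944607, plus strand: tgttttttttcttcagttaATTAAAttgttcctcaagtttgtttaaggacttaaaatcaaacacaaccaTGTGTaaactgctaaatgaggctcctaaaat
BLM, intron 1, chr15:90719700-90719799, plus strand: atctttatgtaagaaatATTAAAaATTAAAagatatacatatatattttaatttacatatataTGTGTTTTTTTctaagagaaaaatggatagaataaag
BRCA1, intron 18, chr17:43059612-43059711, minus strand: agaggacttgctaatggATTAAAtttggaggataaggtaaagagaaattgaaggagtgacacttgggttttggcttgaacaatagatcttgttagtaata
CDK13, intron 1, chr7:39955822-39955921, plus strand: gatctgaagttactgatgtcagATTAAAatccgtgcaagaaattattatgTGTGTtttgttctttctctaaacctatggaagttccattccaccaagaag
PCF11, intron 1, chr11:83159869-83159968, plus strand: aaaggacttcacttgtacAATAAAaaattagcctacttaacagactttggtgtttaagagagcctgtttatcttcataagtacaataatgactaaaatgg
CDK12, chr17:39560394-39560493, plus strand: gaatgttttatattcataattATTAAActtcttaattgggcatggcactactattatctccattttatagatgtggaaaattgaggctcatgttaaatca
CDK13, intron 5, chr7:40006358-40006457, plus strand: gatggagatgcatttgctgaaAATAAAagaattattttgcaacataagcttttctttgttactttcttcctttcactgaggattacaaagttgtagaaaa
CDK13, intron 1, chr7:39967422-39967521, plus strand: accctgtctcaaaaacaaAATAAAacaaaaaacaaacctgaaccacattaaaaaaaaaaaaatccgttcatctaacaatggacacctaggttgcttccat

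The last 2 are strong members of the DNA damage response (DDR) genes listed by the study.
POLN, intron 3, chr4:2226674-2226773, minus strand: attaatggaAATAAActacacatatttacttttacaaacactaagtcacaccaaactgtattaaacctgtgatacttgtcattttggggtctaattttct
BRIP1, intron 10, chr17:61789523-61789622, minus strand: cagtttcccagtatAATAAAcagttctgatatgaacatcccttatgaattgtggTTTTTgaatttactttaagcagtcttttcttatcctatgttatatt

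None of the 20 windows overlapped an annotated exon. Most held a single core hexamer in the window of the rule. FARP2 held 4 copies of AATAAA, NCAPH held 2 copies, BLM held 2 copies of ATTAAA, and ABTB3 held 1 copy of each hexamer. A T-rich or GT-rich element followed the edge in 4 of the 10 strongest windows shown and was not found in FMO4, TMCO3, FARP2, ABTB3, SLC9B2 and KLHL23. The rule counted A only in the first 10 bases past the edge, and runs of A remained close to it in some windows: just before the edge in FMO4, and within or just past the counted bases in SLC9B2 and in the intron 1 member of CDK13 with 5 reads. Over the 50 bases after the counted ones, the median A content was 30% in members, 38% in A-poor peaks without a core hexamer, 42% in A-rich peaks and 24% in TES peaks that met the same sequence conditions. The part of oligo(dT) priming in the members was not tested.

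The member with the highest −log10 q-value lay in intron 3 of FBXL18, an F-box subunit of a ubiquitin ligase, at 48.2 with a pileup of 39 reads at the summit. The strongest TES peak of FBXL18 had a pileup of 14 reads. Members in the unnamed protein-coding gene ENSG00000283515 (50 reads, TES 33), in PRMT2, an arginine methyltransferase (49 reads, TES 44), and in SUFU, an inhibitor of Hedgehog signalling (34 reads, TES 21), also stood above the strongest TES peak of their genes. The same held for ABTB3, with 30 reads against 15, and for NCAPH, a subunit of condensin, with 41 against 37, and TMCO3 had 34 reads at both.

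The other strong members lay below the strongest TES peak of their gene or had none to be compared with. STMN2, which encodes the neuronal microtubule regulator stathmin-2, had a member in intron 1 on chromosome 8 (79616752 to 79617206), with a −log10 q-value of 39.4 and a pileup of 40 reads against 54 at its TES. FARP2, a guanine nucleotide exchange factor, had 29 reads against 59, SLC9B2, a sodium/proton antiporter, 31 against 32, and KLHL23 37 against 41. The KLHL23 member lay at −22.6 kb from the canonical start, that is before it, in an intron of a longer or alternative transcript. FMO4, a flavin-containing monooxygenase, had a member with 29 reads in its last intron and no peak in its TES windows. No spread between libraries is known for any of these pileups.

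MYCN, the transcription factor amplified in IMR-32, held a single intronic peak among those searched, and it was a member. This peak in intron 2 followed an ATTAAA and had a pileup of 47 reads, with 73 at the TES, a −log10 q-value of 12.1 and a local background of 11.4 reads, against a median of 0.51 over all members. BLM, a RecQ helicase of homologous recombination, had 1 member of 16 peaks searched, in intron 1 at 2.35 kb from the start, with 11 reads and 32 at the TES. PCF11, a factor of transcription termination, had 1 of 2, in intron 1 at 2.7 kb from the start, with 12 reads and 28 at the TES.

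BRCA1 had 1 member of 10 peaks, in intron 18 of 22, with 12 reads. CDK13 had 3 members of 21 peaks, 2 in intron 1 and 1 in intron 5, with pileups of 8, 5 and 8 reads and 34 at the TES. CDK12 had 1 member of 12 peaks, with 8 reads, 25.7 kb past the end of the canonical transcript in an intron of a longer annotated transcript. BARD1, the partner of BRCA1, had 15 intronic peaks, of which 5 were A-poor without a core hexamer and 10 were A-rich. Of these genes only MYCN had a member above 12 reads.

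Across all members, the −log10 q-value had a median of 6.56 and ranged from 1.32 to 48.2, with 3.99 at the 10th and 13.9 at the 90th percentile. The pileup had a median of 9 reads and ranged from 3 to 51. The median width was 106 bp and the lowest 100 bp, the length to which reads were extended before calling. A-poor peaks without a core hexamer had a median width of 107 bp and A-rich peaks 103 bp. Members were compared with the other 2 classes of intronic peaks: 19734 peaks that were A-poor downstream but had no core hexamer, and 66274 A-rich peaks with 7 or more A. They were also compared with 22867 TES peaks of protein-coding genes, of which 10184 (44.5%) met the same 2 sequence conditions as the members.

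On the −log10 q-value scale 181 members, or 3.32% (95% Wilson interval 2.88% to 3.83%), stood at 20 or above, where 1.82% of all intronic peaks searched did so. The share was 2.32% for A-poor peaks without a core hexamer, a difference of 1.01 percentage points (95% Newcombe interval 0.513 to 1.56), and 1.54% for A-rich peaks, a difference of 1.78 points (1.33 to 2.3). Among TES peaks that met the same sequence conditions it was 27.3%, so that members were far weaker than the ends of genes with like sequence. At the lower limit of 5, passed by 68.3% of all intronic peaks searched, the share of members was 72.2%, compared with 62.3% and 69.7% for the other intronic classes.

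The difference at the high threshold was small and depended on how peaks were counted. With fewer than 5 A allowed, it was 0.247 points from A-poor peaks without a core hexamer (−0.44 to 0.985). With only the strongest peak of each class per gene it turned to −0.91 points (−1.88 to 0.117) from those peaks and to −4.22 points (−5.21 to −3.16) from A-rich peaks. That peak was chosen by the value compared, and the larger classes offered more peaks to choose from, so this setting cannot rank the classes. With the most 5′ peak of each class per gene, a choice made after seeing the data, the differences from the same 2 classes were 0.865 points (0.151 to 1.65) and 1.61 points (0.953 to 2.36). At the very top the order changed, since 5 members (0.0918%) and 48 A-poor peaks without a core hexamer (0.243%) reached 40.

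Strength was also read against the host gene, using the pileup of its strongest TES peak as a rough measure of its expression. In genes whose strongest TES peak had 1 to 14 reads, 2.53% of members and 1.44% of A-poor peaks without a core hexamer reached 20, in genes with 15 to 29 reads 2.96% and 1.98%, and in genes with 30 or more reads 4.62% and 2.94%. In genes with no TES peak the shares were 2.25% and 3.29%, with overlapping intervals. The value of the members was the higher one in each class of genes that had a TES peak, but at 1 to 14 reads the intervals (1.67% to 3.79% and 1.05% to 1.96%) overlapped.

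Of the 5134 members in genes with a TES peak, 403 (7.85%, 7.15% to 8.62%) had a pileup at or above that of the strongest TES peak of the gene, as did 4.94% of all intronic peaks searched in such genes. The share was 5.22% for A-poor peaks without a core hexamer, 2.63 points lower (1.85 to 3.46), and 4.63% for A-rich peaks. The highest pileup among the TES peaks was 87 reads. The MACS2 options that the paper lists include none for reads at the same position. Any removal of such reads would lower strong TES peaks most. Pileups would then count positions and not reads, and a pileup at or above the TES would not measure use. This was not tested.

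The position of the core hexamers was not set by the window of the rule alone. Among all A-poor intronic peaks, AATAAA and ATTAAA together started most often 23 bp before the 3′ edge, at 20.8 per 1000 peaks, and fell to 7.43 per 1000 at 30 bp and 3.61 per 1000 at 40 bp, with a mean of 3.15 over 36 to 60 bp. The A-poor TES peaks had their maximum at the same distance, at 55.9 per 1000. A-rich intronic peaks had no maximum there, with 3.58 per 1000 at 20 bp and their highest value, 11.8 per 1000, 7 bp before the edge.

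**Figure D1:**
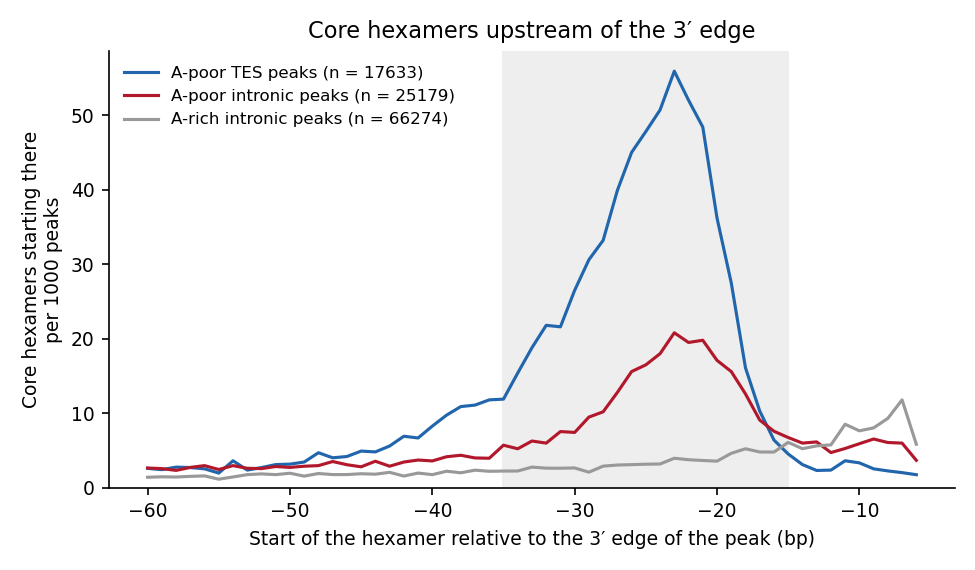
Core hexamers (both together) starting at each distance from 60 to 6 bp before the 3′ edge, per 1000 peaks, with the window of the rule shaded. A-poor intronic and A-poor TES peaks both reach their maximum 23 bp before the edge, at 20.8 and 55.9 per 1000, and A-rich intronic peaks have no maximum in the window.

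AATAAA was present in 4150 members (76.2%, 75.1% to 77.3%), 170 of which also held ATTAAA, and 1295 members held ATTAAA alone. The TES peaks that met the same conditions had AATAAA in 78.1%, and the difference of the members from them was −1.91 points (−3.3 to −0.528). At a −log10 q-value of 20, members with AATAAA and members with ATTAAA alone did not differ detectably. It was reached by 3.45% and 2.93% (difference 0.511 points, −0.673 to 1.5). The median pileup was 9 reads in both, and the median −log10 q-value was 6.69 with AATAAA and 6.15 with ATTAAA alone. Among members with a −log10 q-value of 5 or more, 77.7% had AATAAA.

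How often each hexamer of the introns had a peak behind it was counted over the 1042 Mb searched. AATAAA occurred 1023714 times on the gene's strand, and 4742 of these (46.3 per 10000) were followed 15 to 35 bp on by the edge of an A-poor peak, the highest rate of all hexamers. On the opposite strand, measured from the opposite edge of the peaks, the rate of AATAAA was 14.0 per 10000. ATTAAA was followed in 1470 of 695459 occurrences, or 21.1 per 10000, and in 13.4 per 10000 on the opposite strand. AATAAA was thus followed 2.19 times as often as ATTAAA (exact binomial interval 2.07 to 2.33).

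The 10 other signal variants named by the study had lower rates, which ran from 6.62 per 10000 for ACTAAA to 13.8 for AAGAAA on the gene's strand and from 9.15 to 12.4 on the opposite strand, and the median over all hexamers was 3.85. The rate on the gene's strand was 3.31 times that on the opposite strand for AATAAA, 1.57 times for ATTAAA and 1.48 times for AAGAAA, and between 0.641 and 1.15 times for the other 9 variants. These ratios are per occurrence of the hexamer and not per A-poor edge. The gene's strand had 25179 A-poor edges and the opposite strand 87792, so the ratios do not give the strand preference per edge. ATTAAA itself had rank 21 among all hexamers. Ranks 2 to 10 were held by hexamers such as CGGGTT (42.2 per 10000) and CTCCGC (37.6), whose rates were far higher on the opposite strand, at 641 and 489.

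The share of A-poor peaks with a core hexamer was 21.6% on the gene's strand and 3.35% on the opposite strand, where 2939 peaks met the rule from their other edge. The A-poor peaks behind these shares numbered 25179 and 87792, and of the same 91453 peaks 5445 (5.95%) met the rule on the gene's strand and 2939 on the opposite strand. Of the members, 313 (5.75%) met it on both strands, and the opposite edge met it in 6.41% of A-poor peaks without a core hexamer and 2.06% of A-rich peaks. Beyond the opposite edge, 195 members (3.58%) were followed by 7 or more A, against 13.0% and 1.35% in these classes. Separate stretches of 31 bases within the 100 bp before the edge were looked up in the genome. At least 1 of them occurred only once for 96.7% of members, compared with 92.8% and 87.6% in the other intronic classes. The summit of 75 members lay in an intron while the 3′ edge reached into an exon.

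The share of peaks with a core hexamer changed with the number of A downstream. It was 31.3% among the 611 peaks with no A in the 10 bases, 39.4% among the 2607 peaks with 3 A, 16.0% with 5 A, 10.7% with 6 A and 1.21% among the 18473 peaks with 10 A. Just inside the limit, the 1045 members with 6 A had a median −log10 q-value of 6.67, and 3.25% of them reached 20. Just outside, the 1394 peaks with 7 A and a core hexamer had a median of 6.89, and 3.37% reached 20.

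The sequence past the edge, beyond the 10 bases that the rule used, held a T-rich or GT-rich element more often in members than in other intronic peaks. The run TTTTT, the repeat TGTGT or its shifted form GTGTG, searched on the gene's strand 11 to 60 bp downstream, was present in 33.0% of members (31.7% to 34.2%), 20.9% of A-poor peaks without a core hexamer (difference 12.1 points, 10.7 to 13.5) and 17.0% of A-rich peaks. The TES peaks that met the same conditions had it in 35.8%, and the difference of the members from them was −2.87 points (−4.43 to −1.31). TTTTT alone was present in 22.8% of members and TGTGT or GTGTG in 12.8%, against 13.1% and 9.11% of A-poor peaks without a core hexamer, and these 2 motif kinds can overlap.

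The same 3 motifs in a window of equal length more than 100 bp upstream were no more frequent in members (26.4%) than in A-poor peaks without a core hexamer (29.7%), but more frequent than in A-rich peaks (22.9%, difference 3.55 points, 2.36 to 4.78). The T content past the edge moved with the downstream result: a median of 34% of the 50 bases were T in members, 24% in both other intronic classes and 36% in the TES peaks. Among windows with 15 to 19 T, 26.3% of members and 32.5% of A-poor peaks without a core hexamer had an element, and among windows with 20 or more T 59.3% and 60.5%. Members therefore had more T downstream, and at a like number of T their share with an element was not above that of A-poor peaks without a core hexamer.

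**Figure D2:**
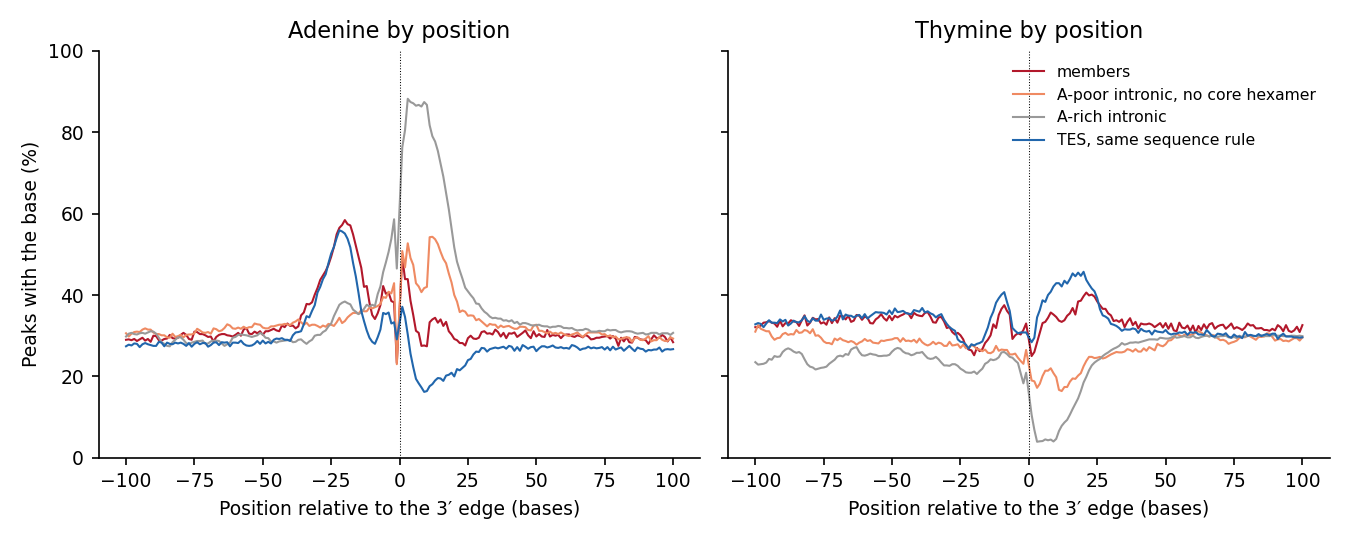
Percent of peaks with adenine (left) and thymine (right) at each base from 100 before to 100 after the 3′ edge. Members and the TES peaks that met the same conditions share a rise in adenine near 20 bases before the edge, which the rule asks for; at 15 bases past the edge thymine stood at 35.5% in members, 43.9% in these TES peaks and 18.7% in A-poor peaks without a core hexamer, and adenine at 34%, 19.5% and 50.6%.

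TGTA, the DNA form of the motif bound by CFIm, was searched on the gene's strand 100 to 36 bp upstream, before the window of the hexamers. It was present in 44% of members (42.7% to 45.3%), 28.0% of A-poor peaks without a core hexamer (difference 16.0 points, 14.5 to 17.5) and 24.0% of A-rich peaks. The TES peaks that met the same conditions had it in 45.6%, with a difference of −1.59 points (−3.22 to 0.0485). In contrast to the downstream element, the difference held at like T content: with 15 to 19 T in the 65 bases 42.5% of members and 25.8% of A-poor peaks without a core hexamer had TGTA, with 20 to 24 T 46.1% and 33.8%, and with 25 or more T 52.8% and 41.0%.

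The hexamer GGTGAG, its variant GGTAAG or the shifted hexamer GTGAGT, which overlap one another, were searched on the gene's strand. These U1-like motifs, which resemble the 5′ splice site that U1 snRNP pairs with, lay within the 1 kb upstream of 42.3% of members (41.0% to 43.6%) and of 48.1% of A-poor peaks without a core hexamer, a difference of −5.79 points (−7.27 to −4.3). The difference from A-rich peaks was −3.66 points (−5.02 to −2.29), and TES peaks that met the same conditions stood close to members at 43.2% (−2.5 to 0.758 points). The GC content of that 1 kb had a median of 39.7% in members and 40.5% in A-poor peaks without a core hexamer. Within 35% to 40% GC the shares were 37.8% and 45.6%, and within 40% to 45% GC 42.2% and 49.5%, whereas under 35% and from 45% GC on the intervals overlapped.

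**Figure D3:**
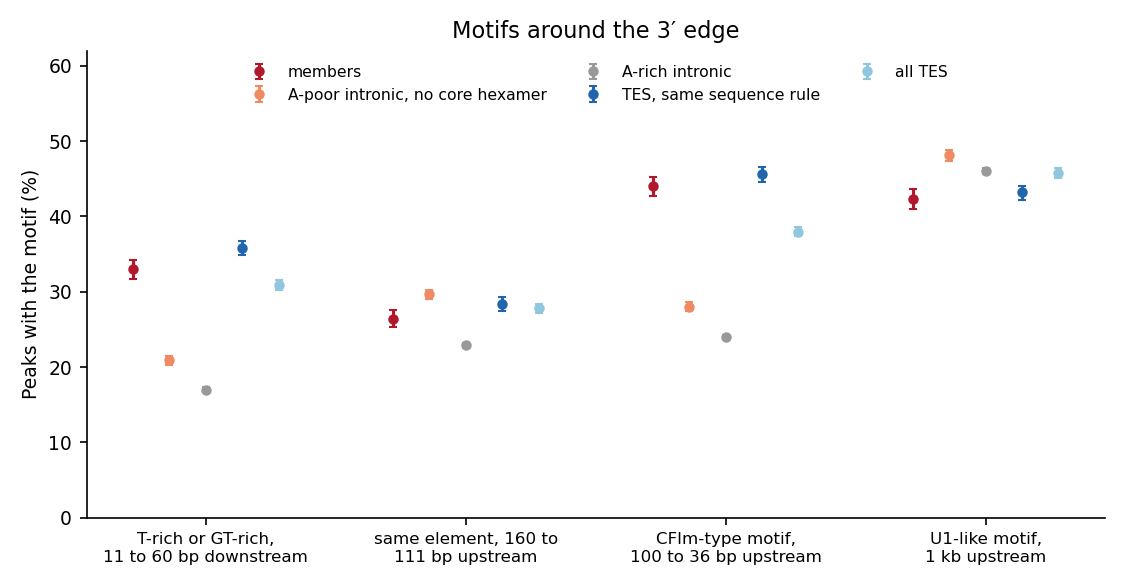
Percent of peaks with each motif, with 95% Wilson intervals, for members (n = 5445), the other intronic classes and TES peaks. Members lie near the TES peaks for the downstream element (33.0% and 35.8%) and for TGTA, drawn as the CFIm-type motif (44% and 45.6%), and below the A-poor peaks without a core hexamer for the U1-like motif.

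At the −log10 q-value limit of 20, members with these features did not differ detectably from members without them. The limit of 20 was reached by 3.23% of members with a downstream element and 3.37% without (difference −0.139 points, −1.1 to 0.93), by 3.84% with TGTA and 2.92% without (0.918 points, −0.0422 to 1.92), and by 2.91% with a U1-like motif and 3.63% without (−0.721 points, −1.66 to 0.253). None of these 3 intervals excluded 0. The features were unevenly shared with the A count: the downstream element was present in 40.5% of members with 0 to 2 A and 23% of those with 5 or 6 A (17.5 points, 14.5 to 20.5), and TGTA in 45.2% and 40.3%.

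By intron number, members lay less often in the first introns than the other classes. Of the 4756 members inside the canonical transcript, 1679 (35.3%, 34% to 36.7%) lay in its first 2 introns, compared with 39.4% of A-poor peaks without a core hexamer and 41.9% of A-rich peaks (differences −4.14 points, −5.66 to −2.6, and −6.64 points, −8.04 to −5.22). The last intron held 8.79% of members, 6.73% and 5.4% of the other classes. Within 1 kb downstream of an exon lay 14.1% of members, 13.0% of A-poor peaks without a core hexamer (difference 1.07 points, 0.0483 to 2.12) and 9.71% of A-rich peaks. In bp, members were not farther from the start, with a median distance of 44761 bp against 49916 bp and 61956 bp in the other classes.

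Introns over 20 kb held 45.7% of members, 47.6% of A-poor peaks without a core hexamer and 53.1% of A-rich peaks, and the intron around a member had a median length of 17361 bp. With the gene divided into 5 stretches of equal length, the first 4 held similar shares of members, 21.1%, 21.7%, 21.3% and 20.4%, and 15.5% lay in the last. For no stretch did the interval of the difference from A-rich peaks exclude 0, and from A-poor peaks without a core hexamer it did so only for the last (−1.48 points, −2.56 to −0.367). Strong members showed no detectable difference by position, as 3.45% of those in the first 2 introns and 3.22% of those in later introns reached a −log10 q-value of 20 (0.237 points, −0.795 to 1.37).

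A part of the members lay outside the canonical transcript, in introns of longer or alternative transcripts of the gene. Past its end lay 347 members (6.37%, 5.75% to 7.05%), compared with 2.63% of A-poor peaks without a core hexamer (difference 3.74 points, 3.08 to 4.46) and 1.67% of A-rich peaks (4.7 points, 4.08 to 5.39). Of these, 159 were within 10 kb of that end, with a median pileup of 11 reads. Before the canonical start lay 342 members (6.28%), against 5.21% and 4.03%. Whether such peaks past the end are intronic sites or ends of the canonical transcript beyond the 600 bp window was not tested. Inside the canonical transcript alone, 3.3% of members reached a −log10 q-value of 20 and 33.0% had the downstream element.

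Members were found in 3132 of 15743 protein-coding genes searched (19.9%). A single member was held by 1955 of these genes, 2 by 641, and 3 or more by 536. The highest numbers were 14 in GSE1, a chromatin-associated protein, 12 in RBFOX3, the splicing regulator known as the neuronal antigen NeuN, and 11 each in PTPRN2, a secretory granule phosphatase family member, TENM4, a teneurin of neuronal contacts, and SYNDIG1, a regulator of synapse development. In the same order 89, 95, 58, 123 and 42 peaks were searched in these genes, and members were 5.95% of the peaks searched over all genes.

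These genes are long, from 197 kb for SYNDIG1 to 1049 kb for PTPRN2, and each held members of very different height. All 14 members of GSE1 lay before its canonical start, in introns of longer transcripts, with −log10 q-values from 3.64 to 23.9, a median of 8.69, and pileups from 5 to 23 reads against 65 at the TES. RBFOX3 members lay in 3 introns and ran from 4.74 to 24.0 in −log10 q-value, and 6 of the 12 had AATAAA. TENM4 and PTPRN2 members were spread over 7 introns each, with at most 22 and 19 reads. The PTPRN2 member with 19 reads stood above the strongest TES peak of that gene, which had 9 reads, and the TENM4 member with 22 reads above one with 19 reads.

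Per Mb of intron searched, members were fewer in long genes. Genes under 50 kb had 7.69 members per Mb (exact Poisson interval 7.19 to 8.21), genes of 50 to 100 kb 7.51, genes of 100 to 300 kb 5.8, and genes over 300 kb 3.2 (3.03 to 3.37). A-poor peaks without a core hexamer fell likewise, with 26.4, 23.6, 20.7 and 13.6 per Mb, while A-rich peaks had 60.8, 71.3, 72.0 and 54.3 per Mb. By the strongest TES peak, the number rose from 1.32 per Mb in genes without a TES peak to 3.76 at 1 to 14 reads, 7.08 at 15 to 29 reads and 8.11 at 30 or more. The other intronic classes rose over the same genes too, A-poor peaks without a core hexamer from 5.8 to 34 per Mb and A-rich peaks from 9.58 to 103 per Mb, and the share of members among the peaks searched went from 7.89% in genes without a TES peak to 5.59% in those with 30 or more reads. In bulk RNA, the number of transcripts of a gene and the share of them that end at a member cannot be told apart.

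Gene lists are described by their counts beside these values. Of all genes searched 19.9% had a member, and this share rose with gene length. It was 7.94% under 50 kb, 27.6% at 50 to 100 kb, 41.9% at 100 to 300 kb and 55.7% over 300 kb. The median gene length was 37.2 kb over all genes, 44.5 kb for DDR, 63.9 kb for PCPA, 66.2 kb for neuroblastoma and 118 kb for chromatin genes. The median of the strongest TES pileup was 17 reads over all genes searched and between 15.5 and 41 reads in the lists below, and it was below 17 reads only for the neuronal adhesion and synapse genes. A-poor peaks without a core hexamer numbered 18.9 per Mb over all genes and 8.54 in neuronal adhesion and synapse genes. All other lists had more of them per Mb. The values were 24.0 for DDR, 32.0 for elongation, 33.4 for chromatin and 33.6 for neuroblastoma genes. They were 34.7 for genes known for intronic polyadenylation, 35.7 for PCPA genes, 36.8 for cleavage factors and 44.9 for splicing genes. Members made up 5.95% of the peaks searched over all genes. This share was 16.5% for cleavage and polyadenylation factors, 10.0% for genes known for intronic polyadenylation, 9.19% for DDR genes, 7.5% for neuroblastoma genes, 7.15% for PCPA genes, 5.46% for chromatin regulators, 4.96% for splicing and U1 snRNP genes, 3.75% for neuronal adhesion and synapse genes and 3.17% for elongation genes. Of 132 DDR genes searched, 44 had a member (33.3%), against 19.9% over all genes. They held 81 members in all, or 11.7 per Mb (9.26 to 14.5), against 5.23 per Mb over all genes. Their median −log10 q-value was 5.94, below the 6.56 of all members. The list also had 91.1 A-rich peaks per Mb against 63.6 over all genes, so each kind of intronic peak was more frequent per Mb.

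Inside canonical transcripts alone the DDR list had 10.1 members per Mb (7.7 to 13.1), and 20 of the 81 members lay past a canonical end. POLN, a DNA polymerase, had a member in intron 3 with 32 reads and 6 at the TES. Where genes overlapped the longest one took the peak, and whether a shorter gene shares the POLN peak was not tested. BRIP1, the helicase that binds BRCA1, had a member in intron 10 with 27 reads and 30 at the TES.

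The study selected the PCPA genes from nascent RNA of inhibitor-treated cells and not from these libraries. Of 731 PCPA genes searched, 310 had a member (42.4%), against 19.9% over all genes. These genes held 565 members or 11.4 per Mb (10.5 to 12.4). Their other intronic peaks were also more frequent, with 113 A-rich peaks per Mb and 35.7 A-poor peaks without a core hexamer per Mb. Over all genes these were 63.6 and 18.9. The median −log10 q-value of the members was 6.91. ABTB3, SLC9B2 and RABGAP1, a GTPase-activating protein for Rab proteins, held the strongest, and the RABGAP1 member had 40 reads against 45 at its TES. For that peak the least repeated of the upstream stretches of 31 bases occurred 2 times in the genome, and 7 of 10 bases were A past the opposite edge.

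Cleavage and polyadenylation factors had the highest number per Mb of the lists described, 26.9 (16.2 to 42.0), from 19 members in 10 of 20 genes, beside 99.2 A-rich peaks per Mb. CSTF3, the subunit of CstF known to be polyadenylated in intron 3, held 7 of the 19, out of 13 peaks searched in that gene, and all 7 lay in intron 3. Their pileups were 16, 13, 13, 12, 10, 10 and 8 reads, against 24 at the TES, and their −log10 q-values ran from 4.58 to 8.22. CSTF3 was named for its count after the values were seen, and without it the list had 18.3 per Mb (9.45 to 32.0). WDR33, which binds the AAUAAA hexamer, had a member with 18 reads in intron 7, CPSF6, a subunit of CFIm, one with 22 reads in intron 9, the last, and PPP1CB, a phosphatase subunit, one with 12 reads in intron 1.

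A list of 10 genes known for intronic polyadenylation had members in 7, with 18 members or 14.5 per Mb (8.61 to 23), beside 96.1 A-rich peaks per Mb. It shares CSTF3, and without that gene had 9.25 per Mb (4.62 to 16.6). MAGI3, a scaffold protein, had a member in intron 1 with 22 reads and a −log10 q-value of 21.4. EPRS1, a tRNA synthetase, had one in intron 18 with 14 reads, and FOXN3, a forkhead repressor, one in intron 2 with 10 reads.

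The neuroblastoma list had 39 members in 15 of 29 genes, or 9.18 per Mb (6.52 to 12.5) beside 79.5 A-rich peaks per Mb, with the highest in DDX1, an RNA helicase gene near MYCN, ALK, a receptor tyrosine kinase, and CHGA, chromogranin A of secretory granules. Their pileups were 48, 24 and 22 reads, against 63, 24 and 48 at the TES, and the local background of the DDX1 peak was 6.41 reads. Chromatin regulators had 56 members in 30 of 57 genes, or 7.86 per Mb (5.94 to 10.2), and 103 A-rich peaks per Mb. ARID4B had a member with 25 reads and CHD7, a chromatin remodeller, one with 20 reads.

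The neuronal adhesion and synapse genes, with a median length of 915 kb, had 72 members in 22 of 44 genes but only 1.8 per Mb (1.41 to 2.27), and 37.7 A-rich peaks per Mb. Their strongest members lay in TENM4 (22 reads), in CNTN4, a contactin (17 reads), and in CTNNA2, alpha-catenin of neurons (18 reads). RNA polymerase II elongation genes had 12 members in 7 of 36 genes, or 4.62 per Mb (2.39 to 8.08) beside 109 A-rich peaks per Mb, among them AFF3 with 15 reads and CDK13. Splicing factors and U1 snRNP genes had 6 members in 5 of 37 genes, or 8.7 per Mb (3.19 to 18.9) beside 122 A-rich peaks per Mb, among them PTBP2 with 20 reads and LUC7L2 with 26 reads, the latter against 81 at the TES, and RBM39 with 15 reads.

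**Figure D4:**
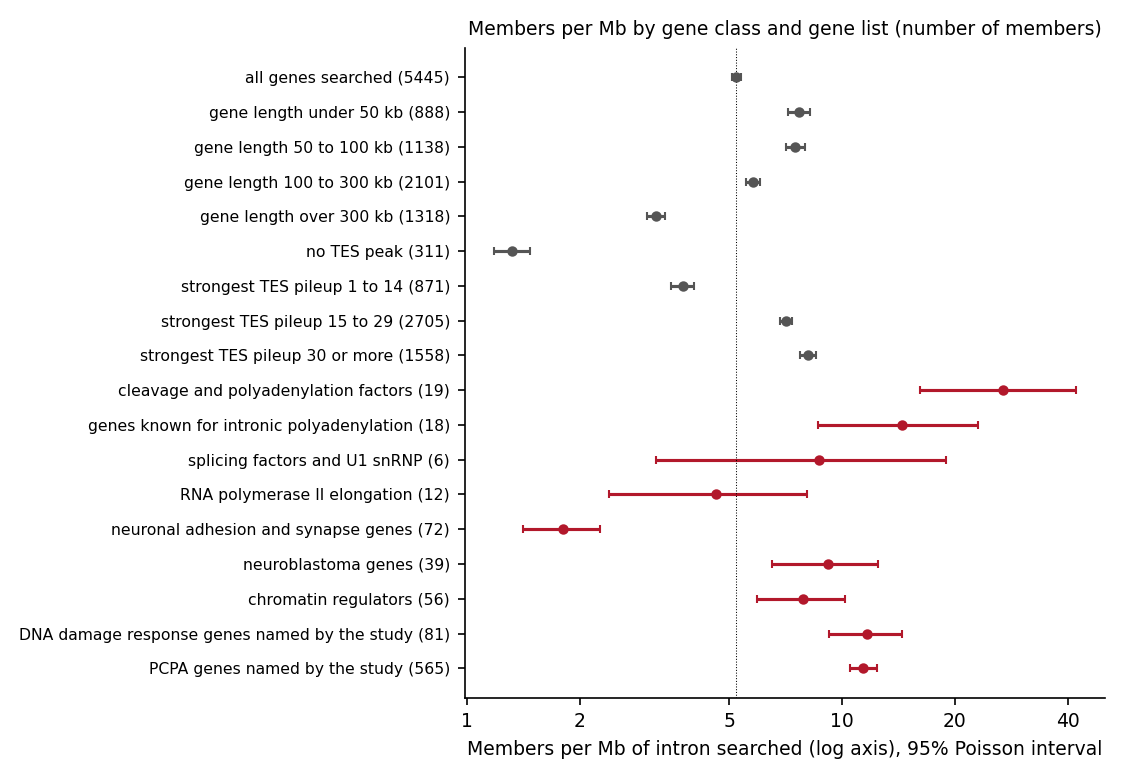
Members per Mb of intron searched (log axis) with exact 95% Poisson intervals, for genes by length and by the pileup of their strongest TES peak (grey) and for the gene lists (red), with the number of members in parentheses. The dotted line is the value over all genes, 5.23 per Mb; cleavage and polyadenylation factors stand at 26.9 and neuronal adhesion and synapse genes at 1.8.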

How the data were processed

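Poly(A) 3′-seq libraries (QuantSeq REV, single-end) of IMR-32 cells were processed in different batches. The authors trimmed the reads, mapped them to GRCh38 with STAR 2.5.1b, downsampled the knockdown libraries to the smallest library, merged all reads and called peaks with MACS2 2.1.1, extending reads to 100 bp. The deposited list gives for each peak a fold (the ratio of pileup plus 1 to local background plus 1), a p-value and a q-value as −log10, and a score, which was not used. None of its columns held values per sample.

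The pileup was the whole number that met the deposited fold and p-value (largest miss 0.000168). Annotation was GENCODE 44 and sequence GRCh38, on chromosomes 1 to 22, X and Y. Where protein-coding genes overlapped, the longest one took the peak. Of the DDR names 146 of 162 and of the PCPA names 803 of 809 matched a protein-coding gene.

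Members and lists were chosen with earlier results of these data known. The genes named were the 12 strongest members, every member in CDK12, CDK13, BLM, BARD1, BRCA1, PCF11 and MYCN, the 5 genes with most members and the 3 genes with the strongest member of each list. Some of these are not reported here. Intervals are 95% Wilson, Newcombe, exact Poisson or exact binomial intervals. Alternatives changed the A limit, hexamer and element windows, q-value, merging, transcripts, strand and counting of peaks. Steps were tested on simulated data. Python 3.11.15, numpy 2.4.6, scipy 1.17.1, pandas 2.3.3 and matplotlib 3.10.9 were used.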

Additional observations from a re-analysis of the deposited data

How the results depend on the processing

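No paired analysis was possible because peaks were called on merged reads with no value for any library, and for the same reason no replicate could be left out. With fewer than 5 A, 3590 regions met the rule, the difference in strong peaks from A-poor peaks without a core hexamer was 0.247 points, and the shares with the element and with AATAAA were 38.1% and 78.2%, with an AATAAA to ATTAAA ratio of 2.39. With the strongest peak of each class per gene, 5.46% were strong, the differences turned to −0.91 and −4.22 points, and 37.0% lay in the first 2 introns. This setting gives no hexamer ratio. Among peaks with 5 or more on the −log10 q-value scale, 4.6% were strong, 77.7% had AATAAA and the ratio was 2.39. With canonical transcripts only, 7580 regions met the rule, against 5445 in the main setting. Of these 7580, 4.47% were strong and 34.4% had the element, and 30.7% of those with an intron number lay in the first 2 introns. The element share was 31.7% with the hexamer 40 to 10 bp upstream and 29.8% with the element 1 to 40 bp downstream. In the setting with turned differences the peak was chosen by the value compared, so they cannot rank the classes. Their cause was not tested. The differences in strong peaks, in the element and in the first 2 introns otherwise kept their sign wherever they were recomputed, including under 4 settings chosen after seeing the data: unique upstream sequence, an A-poor opposite edge, peaks inside the canonical transcript and the most 5′ peak per gene, the last without the intron result. Other differences in the text were not recomputed under these settings.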
